A study of Mus musculus with 3 samples.

Results

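Immature secondary-granule neutrophils were a main cell group of the fracture callus library of day 7. They were selected on measured values, as cells with high *S100a8* and *S100a9*, high *Ngp*, *Camp* and *Ltf*, and low *Elane*, *Mpo* and *Prtn3*. The limits were at least 500 UMIs (unique molecular identifiers, each counting 1 captured transcript) per 10,000 of the cell for *S100a8*+*S100a9*, at least 100 per 10,000 for *Ngp*+*Camp*+*Ltf*, and under 50 per 10,000 for *Elane*+*Mpo*+*Prtn3*. Of 9103 barcodes, 8178 had 500 or more genes, at most 10% mitochondrial UMIs and at most 5% hemoglobin UMIs, and 2825 of these met the rule, which is 34.5% (95% exact Clopper-Pearson interval 33.5 to 35.6%). Cells with 2 or more UMIs of *Mki67* and *Top2a* together were called cycling. There were 699 cycling and 2126 non-cycling immature neutrophils, and both are described side by side.

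Neutrophils fill their granules in order as they mature. Promyelocytes make the serine proteases and myeloperoxidase of the primary (azurophil) granules, myelocytes and metamyelocytes make the lactoferrin, cathelicidin and lipocalin of the secondary (specific) granules, and later forms make the gelatinase of the tertiary granules and the receptors of the secretory vesicles. Division stops around the switch from the myelocyte to the metamyelocyte, so that secondary granule genes are known to span dividing and non-dividing cells. A fracture hematoma draws in mature neutrophils from blood, whereas granule synthesis is known mainly from the bone marrow.

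The 3 libraries came from femoral fracture calluses of untreated C57BL/6 mice, with 1 library each at 7, 10 and 14 days after fracture. The callus was cleaned of marrow, digested with collagenase and sorted for live (7-AAD-) cells that were CD45-, CD31- and TER119-, and the cells are labelled as callus mesenchymal cells. The number of animals behind a library is not given, and the age of the mice is not given in the sources used here. Since each day is 1 library and cells are not replicates, no test between samples was possible, and every interval below covers counting error only.

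The day 7 library went against its label and its gate. At least 1 UMI of *Ptprc*, which encodes CD45, was found in 7452 of 8178 cells within the limits (91.1%), against 6 of 7334 (0.0818%) at day 10 and 188 of 10813 (1.74%) at day 14. Cells high in *S100a8* and *S100a9* and under the limit for primary granule genes numbered 5997 at day 7, 73.3% of the cells within the limits. The libraries shared few barcodes: 29 between days 7 and 10, 42 between days 7 and 14, and 35 between days 10 and 14. None of the members' barcodes seen at day 10 (4) or day 14 (13) met the same limits there. Whether these cells came from the callus, from blood or from remaining marrow cannot be told apart here.

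The genes behind the name lie on a few chromosomes of the mouse. *Ngp* (neutrophilic granule protein) lies at chr9:110419747-110423012 on the plus strand, *Camp* (cathelicidin) at chr9:109847379-109849617 on the minus strand, *Ltf* (lactoferrin) at chr9:111019271-111042767 on the plus strand, and *Lcn2* (lipocalin 2) at chr2:32384633-32388252 on the minus strand, all in GRCm38 (GENCODE). The span from the first base of *Camp* to the last of *Ltf* was 1195 kb. The 250 bases before each RefSeq start site (GRCm38.p6), which lies inside the wider GENCODE bounds, are shown because these genes were high together in the same cells. Capitals mark TTGCNNAA, a core that C/EBP factors are known to bind, searched on both strands.
Ngp: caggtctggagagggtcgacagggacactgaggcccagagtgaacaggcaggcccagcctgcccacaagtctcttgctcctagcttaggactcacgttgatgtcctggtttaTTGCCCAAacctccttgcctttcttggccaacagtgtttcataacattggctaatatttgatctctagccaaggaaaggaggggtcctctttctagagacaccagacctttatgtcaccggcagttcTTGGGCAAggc
Camp: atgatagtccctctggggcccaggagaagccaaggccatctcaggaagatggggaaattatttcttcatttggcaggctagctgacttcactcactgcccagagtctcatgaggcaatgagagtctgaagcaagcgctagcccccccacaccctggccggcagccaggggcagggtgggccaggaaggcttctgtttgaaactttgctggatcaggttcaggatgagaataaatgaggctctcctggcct
Ltf: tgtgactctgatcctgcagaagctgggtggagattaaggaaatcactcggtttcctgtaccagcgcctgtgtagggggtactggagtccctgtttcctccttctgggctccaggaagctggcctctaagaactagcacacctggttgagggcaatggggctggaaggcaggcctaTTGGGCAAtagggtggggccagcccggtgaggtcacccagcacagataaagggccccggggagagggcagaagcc
Lcn2: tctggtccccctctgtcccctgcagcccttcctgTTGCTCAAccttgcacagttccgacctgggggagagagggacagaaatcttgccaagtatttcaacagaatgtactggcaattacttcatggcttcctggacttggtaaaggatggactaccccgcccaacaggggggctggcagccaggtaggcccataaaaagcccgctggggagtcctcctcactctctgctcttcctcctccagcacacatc
These windows were chr9:110419558-110419807 (plus), chr9:109849457-109849706 (minus), chr9:111019042-111019291 (plus) and chr2:32387740-32387989 (minus). The core began at positions -138 and -11 from the start of *Ngp*, at -75 in *Ltf* and at -216 in *Lcn2*, and its letters were not in the *Camp* window. The core was in 5 of the 10 secondary granule genes that had a promoter entry (*Ngp*, *Ltf*, *Lcn2*, *Mmp8* and *Slpi*), and in 9.56% of all 32851 promoter windows of this length. A TATAAA box was in 1 of the 10 (*Cd177*) and in 12.4% of all windows. A match describes the letters and says nothing about binding in these cells.

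Cells were few over a wide stretch of the *Ngp*+*Camp*+*Ltf* level around the limit, with no gap there. In equal log steps, non-cycling cells numbered 298 from 10 to 12.6 per 10,000 and 120 from 31.6 to 39.8. They numbered 108 from 79.4 to 100 and 113 from 100 to 126. The ranges that follow are of unequal width. Among the 5997 *S100a8*/*S100a9*-high cells, 1331 lay below 10 per 10,000, 1196 from 10 to 30, 537 from 30 to 80, 215 from 80 to 125, 452 from 125 to 250, 527 from 250 to 500, 981 from 500 to 1000 and 758 from 1000 to 2000. The cells near the limit were alike on both sides. The 107 members from 100 to 125 per 10,000 had a median of 5226 UMIs and 1429 genes, and the 108 cells from 80 to 100 a median of 5205.5 UMIs and 1413.5 genes. Few members lay near the other limits, with 41 under 1000 per 10,000 of *S100a8*+*S100a9* and 26 from 25 to 50 per 10,000 of primary granule UMIs. A further 75 cells passed the neutrophil and secondary granule limits but had 50 or more per 10,000 of primary granule UMIs, and were left with the precursors. The cells below the *Ngp*+*Camp*+*Ltf* limit that were not cycling (3142) served as mature neutrophils.

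**Figure D1:**
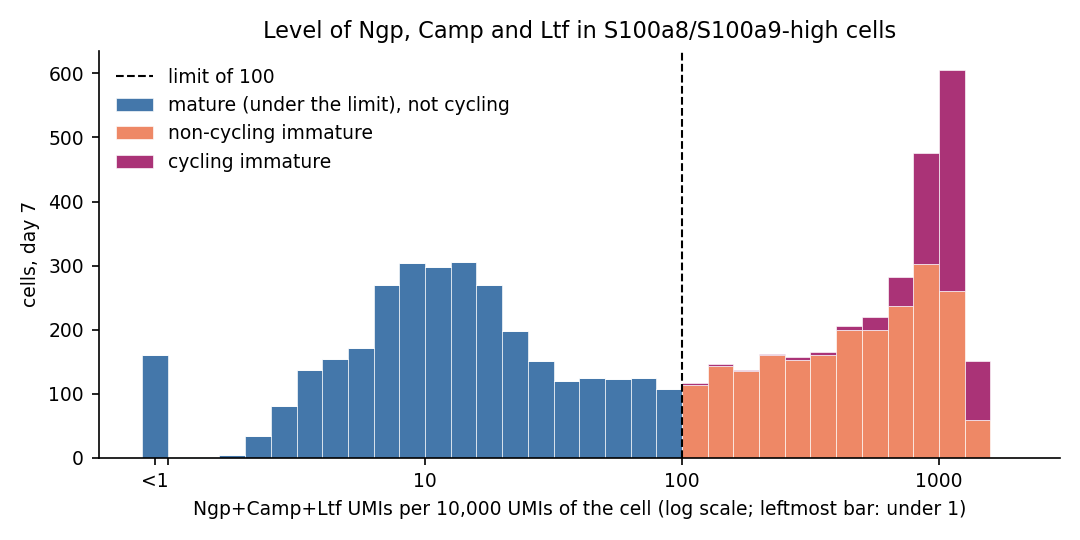
Stacked histogram of the UMIs of *Ngp*+*Camp*+*Ltf* per 10,000 (log axis) in *S100a8*/*S100a9*-high cells of day 7. Shown are non-cycling mature, non-cycling immature and cycling immature cells, with the limit of 100 dashed. Of the 5997 cells, the 30 cycling cells below the limit are not drawn. The cycling members sit toward the right end, and 215 of the 5997 cells lie from 80 to 125.

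The levels of the chosen genes, given as a description of what the rule took, varied widely over the non-cycling members. *Ngp* ran from 62.6 to 522 UMIs per 10,000 between the 5th and the 95th percentile of cells, with a median of 214, and *Camp* from 33.3 to 526 with a median of 181. *Ltf* ran from 2.92 to 208 with a median of 95.7. The cycling members lay higher for *Ngp* (median 384) and *Camp* (median 580), while the *Ltf* median was 99.4. The makeup of the 3 genes' UMIs therefore differed between the groups: *Ltf* took 16.7% in non-cycling and 8.95% in cycling members, and *Camp* 40.0% and 54.5%. In mature neutrophils *Ngp* took 62.6% and *Ltf* 5.53% of a much smaller sum, 2402 CPM (UMIs of a gene per 1,000,000 UMIs summed over the group's cells) against 63506 CPM in non-cycling and 102874 CPM in cycling members. Stroma cells of the same library, taken as a measure of free RNA, had 277 CPM.

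*Lcn2*, an iron-siderophore binding protein of the secondary granules, was not used by the rule. It is one of the genes behind the name, so its level describes the members and is no independent check of the label. After each cell was thinned to 2000 UMIs, it had a UMI in 2081 of 2082 non-cycling and 691 of 691 cycling members, 90.4% of mature neutrophils, 29.9% of precursors and 14.5% of stroma cells, whereas without thinning the shares in precursors and stroma were 95.6% and 82.8%. Its level was 14804 CPM (14747 to 14862) in non-cycling and 14810 CPM (14752 to 14868) in cycling members. In mature neutrophils it was 4281 CPM, in precursors 522 CPM and in stroma 70.1 CPM. Of the groups compared, members therefore had the highest level of *Lcn2*, as of the 3 genes the rule used.

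Against mature neutrophils, the non-cycling members had higher levels of some secondary granule genes and similar or lower levels of others. Of 7644 genes with at least 100 UMIs in both groups together, 598 were 2-fold or more higher (7.82%) and 698 were 2-fold or more lower (9.13%), with a median log2 ratio of -0.05. Because the rule genes are abundant, leaving their UMIs out of the totals moved every ratio up by 0.23 on the log2 scale and gave 919 higher (12.0%) and 472 lower (6.17%), so that 66.1% of the calls were higher in place of 46.1%. Ratios below are on the full totals. Of the 9 secondary granule genes outside the rule, 4 were 2-fold higher and 1 was 2-fold lower, with a median of 0.71.

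*Orm1*, an acute phase glycoprotein, was 70.9 CPM (67.0 to 75) in non-cycling members and 2.02 CPM (1.29 to 3.01) in mature neutrophils, a log2 ratio of 5.13 (4.55 to 5.78). The other 3 were *Olfm4*, which marks a subset of neutrophils, at 163 against 39.3 CPM (log2 2.05), *Lcn2* (log2 1.79), and *Cd177*, a surface glycoprotein also held in secondary granules, at 1721 against 518 CPM (log2 1.73). *Lyz2* (lysozyme, 0.71), the collagenase *Mmp8* (0.52), *Pglyrp1*, a peptidoglycan binding protein (0.38), and *Hp*, haptoglobin (-0.28), stayed within 2-fold. *Slpi*, a protease inhibitor, was lower in non-cycling members, at 1526 against 3304 CPM (log2 -1.11), and this call was lost with the rule genes out of the totals (log2 -0.89). The ratios of *Ngp*, *Camp* and *Ltf*, at 4.19, 5.05 and 6.32, were set by the rule itself.

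All 6 other genes known from immature neutrophils were 2-fold or more higher in non-cycling members than in mature neutrophils, with a median log2 ratio of 2.46. *Chil3*, a chitinase-like lectin, was 2815 CPM against 147 CPM (log2 4.26, 4.19 to 4.33), and *Fcnb*, a ficolin that opens the lectin pathway of complement, was 43.9 against 4.97 CPM (log2 3.14). The protease inhibitor *Serpinb1a* (2.89), the integrin chain *Itgb2l* (2.02), *Anxa1*, the anti-inflammatory annexin (1.67), and *Ifitm6* (1.63) followed. In cells thinned to 2000 UMIs, *Chil3* had a UMI in 82.0% of non-cycling members, 19.3% of mature neutrophils and 6.45% of stroma cells, the last a measure of free RNA. Without thinning the shares were 92.9%, 30.9% and 53.6% at median depths of 7284, 3392 and 29963 UMIs.

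The tertiary granule and secretory vesicle genes were within 2-fold of their mature levels in the non-cycling members. None of 10 passed in either direction on the full totals, and their median was 0.12. *Mmp9*, the gelatinase that defines the tertiary granule, was 3218 CPM (3191 to 3245) in non-cycling members and 2816 CPM (2786 to 2847) in mature neutrophils. The membrane protease *Mmp25* (log2 0.88) and the integrin chain *Itgam* (0.84) were at the upper end, and *Ptafr*, the receptor for platelet activating factor (-0.77), and the metal transporter *Slc11a1* (-0.72) at the lower end. With the rule genes out of the totals *Mmp25* (1.11) and *Itgam* (1.07) passed. Of 6 NADPH oxidase genes 1 passed 2-fold: *Cybb*, the catalytic gp91phox subunit, was 2129 against 371 CPM (log2 2.52). The cytosolic subunit genes *Ncf1* (0.69) and *Ncf4* (0.56) did not pass.

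**Figure D2:**
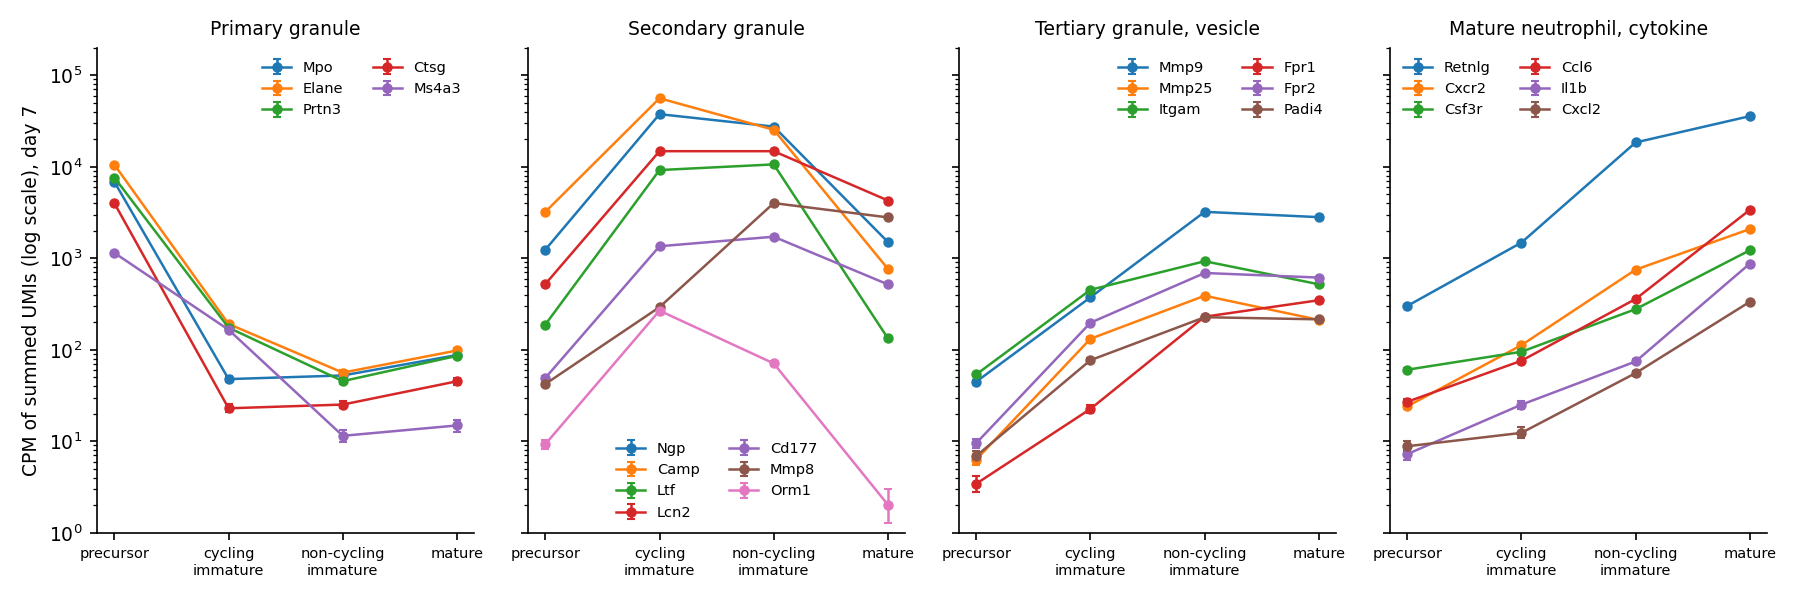
Levels in CPM (log axis) of primary granule, secondary granule, tertiary granule and vesicle, and mature neutrophil or cytokine genes in precursors, cycling members, non-cycling members and mature neutrophils of day 7, with 95% counting intervals. *Mmp8* is 292 CPM in cycling and 4009 CPM in non-cycling members, while *Lcn2* is 14810 and 14804 CPM.

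Genes of the mature neutrophil, of migration and of inflammation were lower in the non-cycling members. Of 12 mature neutrophil genes 9 were 2-fold or more lower and 0 higher (median -1.27), and the calls of *Clec4e* (-1.06 to -0.83), *Il1r2* (-1.14 to -0.91) and *Msrb1* (-1.06 to -0.83) were lost with the rule genes out of the totals. *Ccl6*, a CC chemokine, was 359 against 3385 CPM (log2 -3.24), the lectin receptor *Clec4d* 112 against 832 CPM (-2.89), the G-CSF receptor *Csf3r* 278 against 1225 CPM (-2.14), and *Cxcr2*, the chemokine receptor for marrow exit, 751 against 2087 CPM (-1.47). *Retnlg*, a resistin-like protein of blood neutrophils, was within 2-fold at 18452 against 35762 CPM (-0.95). Of 9 trafficking receptors 5 were lower (median -1.41), among them *Ccr1* (-1.66) and the selectin ligand *Selplg* (-1.5). *Cxcr4*, the receptor that retains neutrophils in marrow, was 188 CPM in non-cycling members and 206 CPM in mature neutrophils (-0.13).

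Of 11 cytokine and inflammatory genes measured, 7 were 2-fold or more lower and 0 higher, with a median of -2.22, and that of *Osm* (-1.22) was lost with the rule genes out of the totals (-0.99). *Il1b* was 74.5 CPM (70.5 to 78.6) against 875 CPM (858 to 892), a log2 ratio of -3.55. *Ccl3* (log2 -4.50), *Ccl4* (-3.73), the inflammasome gene *Nlrp3* (-3.03) and *Cxcl2* (-2.59) were lower too, while *Tnf* was 22.9 against 19.4 CPM (0.24). A UMI of *Il1b* in thinned cells was found in 5.81% of non-cycling members, 51.7% of mature neutrophils and 0.323% of stroma cells (10.7%, 61.4% and 4.39% unthinned). Of 11 interferon-stimulated genes 7 were lower (median -1.32), such as *Ifit3* (-3.16), *Oasl2* (-1.64) and *Rsad2*, or viperin (-1.21, and -0.98 with the rule genes out of the totals). Of 5 survival genes 3 were lower, *Bcl2l11* (-2.06), *Bcl2a1b* (-1.81) and *Mcl1*, which neutrophils are known to depend on (-1.5).

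Among 12 transcription factor genes compared, 3 were higher and 4 lower in the non-cycling members, with a median of -0.34. *Cebpe*, known to be needed for secondary granule genes, was 315 CPM (307 to 324) against 51.4 CPM (47.4 to 55.7) in mature neutrophils, a log2 ratio of 2.62. *Gfi1*, a repressor required for granulopoiesis, was 8.70 against 1.77 CPM (2.30), and *Myb*, a factor of dividing progenitors, 21.9 against 8.84 CPM (1.31). On the lower side were *Junb* (-2.28), *Cebpb*, the factor of emergency granulopoiesis (-2.07), *Fos* (-1.33) and *Irf8*, at 3.46 against 6.99 CPM (-1.01, and -0.79 with the rule genes out of the totals). *Spi1*, encoding PU.1, was 547 against 757 CPM (-0.47). The other two C/EBP genes of the list, *Cebpd* (-0.78) and *Cebpa* (-0.22), were within 2-fold.

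Genes outside the lists also ranked among the largest ratios. Higher in non-cycling members were *Zmpste24*, the prelamin A protease, at 171 against 8.92 CPM (log2 4.26), the fatty acid receptor *Ffar2* at 61.7 against 2.86 CPM (4.43), *Tmem216*, *Tmem45a2*, *Mlst8*, *Lmo1* and *Ica1*, while *Aldh3b3* was 6.28 CPM and had 0 UMIs in mature neutrophils. Lower were *Wfdc17* at 36.1 against 565 CPM (-3.97), *Prr5l*, *St8sia4*, *Ifitm1*, *Pla2g7*, *Sirpb1c* and *Sirpb1b*. The last pair, like *Ifitm1*, belong to families of near-identical copies, so that their counts are uncertain. Few genes of glycolysis (1 of 8 higher, median 0.48), nuclear oxidative phosphorylation (1 of 11 higher, 0.20) or the ribosome (1 higher and 1 lower of 90, -0.02) passed 2-fold, beside a median of -0.05 over all genes.

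**Figure D3:**
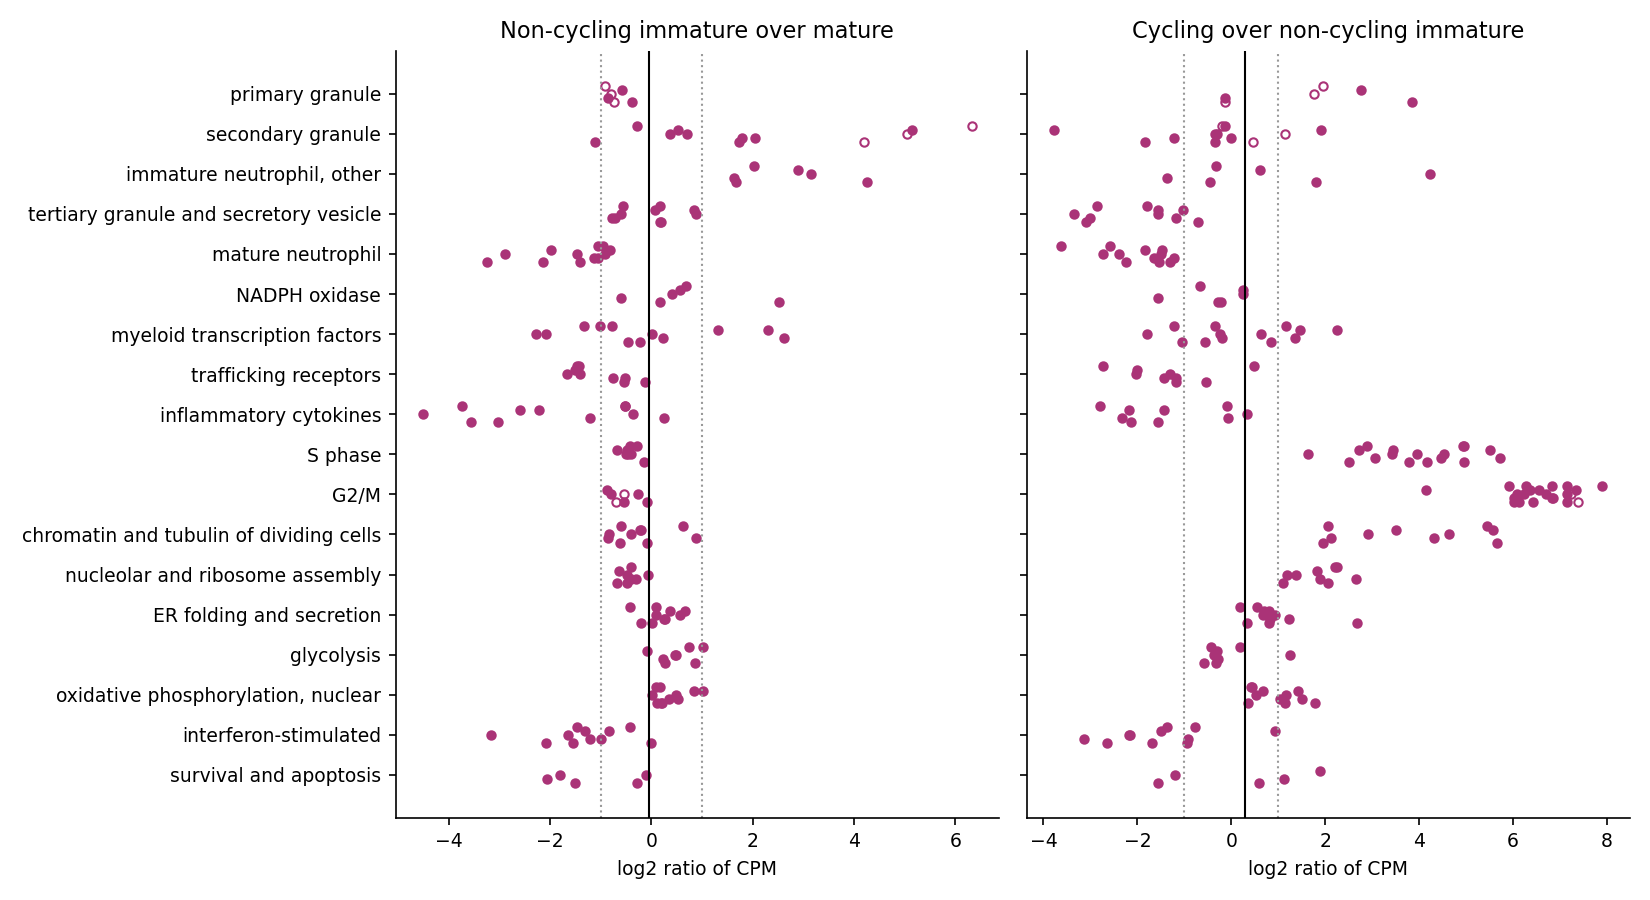
Log2 ratio of each listed gene by list, for non-cycling members over mature neutrophils and for cycling over non-cycling members; open points are genes the rule used, the solid line is the median of all genes and dotted lines mark 2-fold. Cytokine genes lie to the low side in the first comparison and division genes to the high side in the second.

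Cycling cells made up 24.7% of the members (23.2 to 26.4%), compared with 0.946% of mature neutrophils. Deeper cells reach 2 UMIs more readily, and the cycling members had a median of 23111 UMIs and 3776 genes against 7284 UMIs and 1765 genes in the non-cycling. With each cell thinned to 2000 UMIs and 52 shallower members left out, the share was 19.2% (17.7 to 20.7%) in members and 0.416% in mature neutrophils, with 285 shallower cells left out. The same thinned share was 44.1% in precursors and 2.26% in stroma cells. With all UMIs, but without cells holding 3 or more UMIs of B lineage, monocyte, stroma or chondrocyte markers, the share was 13.3%, or 232 of 1738 members. That filter kept 232 of 699 cycling and 1506 of 2126 non-cycling members. Deeper cells reach 3 UMIs more readily too, so it also selects on depth. In thinned cells, at equal depth, the share in members lay between those of precursors and mature neutrophils. Doublets were not called, and a dividing cell and a pair of cells in 1 droplet cannot be told apart by depth alone.

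Between cycling and non-cycling members, 8787 genes were compared, of which 2433 were 2-fold or more higher in cycling cells (27.7%) and 917 lower (10.4%), with a median log2 ratio of 0.29. With every cell thinned to 2000 UMIs and the groups chosen anew, 4408 genes were compared, and 683 were higher (15.5%) and 689 lower (15.6%). The genes of DNA replication and of mitosis were higher in both. All 17 S phase genes compared were higher, with a median of 3.95 (3.31 in thinned cells), and all 21 G2/M genes other than the *Mki67* and *Top2a* used for the call were higher, with a median of 6.42 (4.09 in thinned cells). *Ccnb1*, cyclin B1, was 124 CPM against 0.519 CPM (log2 7.90, 6.97 to 9.03), *Nusap1* 270 against 1.67 CPM (7.34), and *Pcna*, the replication clamp, 125 against 11.6 CPM (3.43). The 10 chromatin and tubulin genes were higher too, for example *Stmn1* at 721 against 14.3 CPM (5.66) and *Hmgb2* at 5482 against 1421 CPM (1.95). Genes outside the lists with the largest ratios were *Ndc80*, *Prc1*, *Cit* and *Pclaf*, all genes of mitosis or replication, and the histone genes *Hist1h2af* and *Hist1h2an*, whose near-identical copies make their counts uncertain.

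Nucleolar genes were higher in cycling members, by smaller ratios than the genes of division. All 9 nucleolar genes passed 2-fold (median 1.90, and 0.99 in thinned cells), such as nucleophosmin, *Npm1*, at 168 against 64.4 CPM. Other growth genes are to be read beside the 27.7% of all genes that were higher. Of 11 nuclear oxidative phosphorylation genes 6 passed (median 1.04), and of 13 mitochondrially encoded genes 10 (median 1.10). Ribosomal protein genes were higher in 35 and lower in 2 of 90. Endoplasmic reticulum folding genes passed in 2 of 11, a share below that of all genes, *Sdf2l1* (2.68) and *Hsp90b1* (1.23), with a median of 0.79. Per cell the median mitochondrial share was 0.702% in cycling and 0.321% in non-cycling members.

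Secondary granule genes differed widely in their ratios between cycling and non-cycling members, and of the 9 outside the rule 1 was higher, 3 were lower and 5 were within 2-fold. *Lcn2* had a log2 ratio of 0.00 (-0.01 to 0.01), and *Cd177* (-0.35), *Pglyrp1* (-0.30), *Hp* (-0.13) and *Lyz2* (-0.35) stayed within 2-fold. *Mmp8*, by contrast, was 292 CPM (284 to 301) in cycling and 4009 CPM (3979 to 4039) in non-cycling members, a log2 ratio of -3.78. In thinned cells *Mmp8* had a UMI in 21.4% of cycling members, 95% of non-cycling members, 85.2% of mature neutrophils and 1.61% of stroma cells (39.3%, 96.6%, 86.0% and 19.1% unthinned). *Slpi* (-1.84) and *Olfm4* (-1.22, and -0.85 in thinned cells) were lower as well, and *Orm1* alone of the 9 was higher, at 268 against 70.9 CPM (1.92). Of the genes of the rule, *Camp* had a ratio of 1.14, *Ngp* of 0.45 and *Ltf* of -0.21.

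Of the 6 other immature neutrophil genes 2 were higher in cycling members, 1 was lower and 3 were within 2-fold. *Fcnb* was 828 CPM (814 to 842) in cycling and 43.9 CPM (40.9 to 47.1) in non-cycling members (log2 4.24), with a UMI in 59.2% and 3.94% of thinned cells and 0.968% of stroma cells (88.3%, 9.55% and 3.45% unthinned). *Chil3* was 9828 against 2815 CPM (1.80), whereas *Ifitm6* was lower, at 1362 against 3539 CPM (-1.38). *Serpinb1a* (0.61), *Itgb2l* (-0.33) and *Anxa1* (-0.45) stayed within 2-fold. Of 13 transcription factor genes 4 were higher in cycling members and 3 lower, with a median of -0.19. Higher were *Gfi1* (2.25), *Myb* (1.45), *Cebpe* (1.36) and *Irf8* (1.16), and lower were *Junb* (-1.80), *Fos* (-1.22) and *Cebpa* (-1.04). *Cebpe* was 811 CPM in cycling members, with a UMI in 76.1% of thinned cycling and 37.0% of thinned non-cycling members, and 0.645% of stroma cells (98.3%, 67.9% and 8.15% unthinned).

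Tertiary granule, mature and receptor genes were lower in cycling members. Of 10 tertiary granule and vesicle genes 9 were lower (median -1.68), with *Mmp9* at 374 against 3218 CPM (-3.10) and the formyl peptide receptor *Fpr1* at 22.6 against 230 CPM (-3.35), while *Itgb2* was within 2-fold (-0.72). All 12 mature neutrophil genes were lower (median -1.75), such as *Retnlg* at 1484 against 18452 CPM (-3.64) and *Cxcr2* at 112 against 751 CPM (-2.74). Trafficking receptors were lower in 7 of 9 (median -1.31), interferon-stimulated genes in 7 of 11 (-1.5) and cytokine genes in 6 of 9 (-1.57). Outside the lists the largest negative ratios were those of *Gpr27* (-4.21), *Prok2* (-4.30), *Mcam* (-4.18), *Bst1* (-3.42), *Ifit1bl2* (-3.69), and the stefin genes *Stfa2* (-4.20) and *Stfa3* (-3.64), which have near-identical copies. *Ly6g*, the surface antigen that defines neutrophils in the mouse, was 385 CPM in cycling and 1038 CPM in non-cycling members (-1.43), and 409 CPM in mature neutrophils.

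Of the 3 genes compared from the primary granule list outside the rule, 2 were higher in cycling members. *Ms4a3*, a gene of granulocyte-monocyte progenitors, was 166 CPM (160 to 172) in cycling and 11.5 CPM (9.93 to 13.2) in non-cycling members (log2 3.85), and 1146 CPM in precursors. *Prss57*, a serine protease of the primary granule, was 41.6 against 6.11 CPM (2.77). *Ctsg*, cathepsin G, was 22.9 against 25.2 CPM (-0.14), and *Mpo*, which the rule limited, 47.8 against 52.4 CPM. *Elane* and *Prtn3*, which the rule limited too, were both 2-fold or more higher in cycling members. With the rule genes, 4 of the 6 primary granule genes compared were thus higher, and the list summed to 644 against 197 CPM. For *Elane*, 28.5% of the UMIs in members lay in 10 cells. Stroma cells, which should lack these genes, had 35.2 CPM of *Mpo*, 11.7 CPM of *Ctsg* and 4.88 CPM of *Ms4a3*. The level of *Ms4a3* in cycling members lay far above that of stroma, and those of *Mpo* and *Ctsg* in both groups lay above it by much less.

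Within the non-cycling members, several neutrophil genes differed along the amount of *Ngp*+*Camp*+*Ltf*. The cells were ordered by this sum and put in 5 bins of 425 or 426 cells, from 100 to 212 per 10,000 in bin 1 to 928 to 1592 in bin 5, with median depths from 5636 to 10213 UMIs. *Lcn2* was 8299 CPM in bin 1 and 21352 CPM in bin 5, *Chil3* 435 and 5758 CPM, *Orm1* 2.53 and 190 CPM, *Fcnb* 1.81 and 135 CPM, *Cebpe* 115 and 544 CPM, and *Cybb* 984 and 3013 CPM. Each of these was higher at every step from bin 1 to bin 5. *Retnlg* ran the other way, at 36197, 30079, 21695, 11351 and 3695 CPM, as did *Cxcr2* (1230 to 284 CPM), *Csf3r* (436 to 151 CPM), *Ccl6* (918 to 65.7 CPM) and *Cebpb* (369 to 85.3 CPM). *Mmp8* was highest in the middle, at 4569, 4811, 4917, 4143 and 2381 CPM, and *Mmp9* was 3577, 3693, 3839, 3231 and 2233 CPM. *Ltf* took 9.27% of the 3 genes' UMIs in bin 1, 15.5% in bin 2, 19.3% in bin 3, 19.0% in bin 4 and 15.3% in bin 5.

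Skeletal markers moved with these bins. Stroma markers summed to 7567, 3863, 536, 311 and 152 CPM from bin 1 to bin 5, and chondrocyte markers to 2120, 1847, 139, 126 and 105 CPM. With cells holding 3 or more UMIs of B lineage, monocyte, stroma or chondrocyte markers left out, 268 to 323 cells remained in a bin and stroma markers were between 101 and 160 CPM. Over these cells *Chil3* was 430 CPM in bin 1 and 5627 CPM in bin 5, *Cebpe* 130 and 536 CPM, *Retnlg* 40993 and 3589 CPM, *Ccl6* 1021 and 55.0 CPM and *Cebpb* 379 and 85.7 CPM. *Klf4*, a factor that stroma expressed at 576 CPM, was 68.3 and 1.54 CPM in bins 1 and 5 of all non-cycling members but 1.62 and 1.71 CPM without such cells, on 3 and 5 UMIs.

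The orders of *Chil3* and *Retnlg* were also present on other totals: with the rule genes left out of them, *Chil3* was 610 CPM in bin 1 and 9717 CPM in bin 5, and *Retnlg* 50717 and 6235 CPM. The housekeeping gene *Gapdh* was between 1872 and 1973 CPM in every bin. *Ly6g* was 614 CPM in bin 1 and 1484 CPM in bin 5, and *Stmn1* was between 10.9 and 17.7 CPM. Put over all 2825 members in 5 bins of 565, the cycling share was 1.77%, 2.83%, 15.2%, 44.8% and 59.1%. In thinned cells it was 0.546%, 1.09%, 11.1%, 35.8% and 46.5%. The share was higher in bins of a higher secondary granule level at equal depth too. Both the bins and the cycling call rest on genes the rule used, so this describes the selected cells only. The share per bin was not computed without cells holding other markers.

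**Figure D4:**
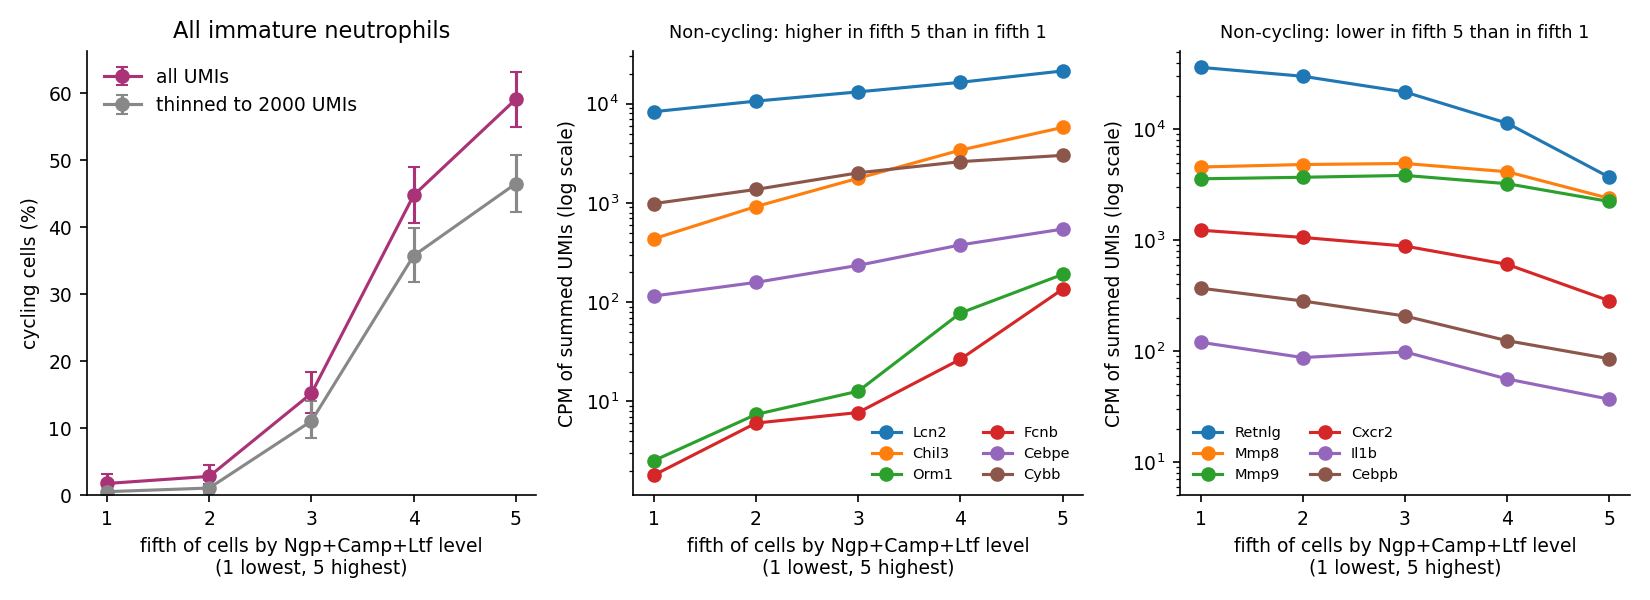
Over 5 bins of *Ngp*+*Camp*+*Ltf*: the cycling share of all members in percent, with all UMIs and thinned to 2000, and the CPM (log axis) of genes higher and of genes lower in bin 5 than in bin 1 of the non-cycling members. The cycling share goes from 1.77% to 59.1%, and *Retnlg* from 36197 to 3695 CPM.

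The 720 precursors, cells within the same limits with 50 or more per 10,000 of *Elane*+*Mpo*+*Prtn3*, were larger and mostly without the neutrophil genes: their median was 42381.5 UMIs, and 628 (87.2%) had under 500 per 10,000 of *S100a8*+*S100a9*. Of 10740 genes compared, 1679 were 2-fold or more higher in all members (15.6%) and 4629 lower (43.1%), with a median log2 ratio of -0.71. With the rule genes out of the totals the median was -0.14, and 23.9% were higher and 29.5% lower. All 9 secondary granule genes outside the rule were higher in members (median 4.18), as were the 10 tertiary granule genes (4.69), 11 of 12 mature genes (2.43) and all 6 NADPH oxidase genes (1.87). *Lcn2* was 4.83, *Mmp8* 5.69, *Ly6g* 5.64 and *Mmp9* 5.34 on the log2 scale. *Gpr27* (6.46), *St3gal5* (5.79) and *Plbd1* (5.67) had the largest ratios outside the lists, beside the bone genes *Bglap* and *Bglap2*. Most precursors had over 5000 genes, and with such cells left out 110 precursors remained, against which the median of the secondary granule genes was 1.85, and *Olfm4* changed from 4.21 to 0.91.

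On the other side, the 3 primary granule genes outside the rule were lower in members, led by *Ctsg* at 24.1 against 4000 CPM (log2 -7.38), and *Irf8*, the factor of monocyte fate, was 5.57 against 338 CPM (-5.92). Growth genes were lower as groups: nucleolar in 9 of 9 (median -3.82), folding in 11 of 11 (-2.56), ribosomal in 82 of 91 with 3 higher (-2.50), mitochondrial in 13 of 13, and S phase in 16 of 18 (-2.29). The G2/M genes differed from these, with 0 of 21 past 2-fold and a median of -0.01 (0.55 with the rule genes out of the totals and -0.86 in thinned cells). This ratio pools 2 unlike groups of members. With *Mki67* and *Top2a* included, G2/M genes summed to 6515 CPM in cycling and 76.8 CPM in non-cycling members. The sum was 3255 CPM in all members and 3315 CPM in precursors. Cycling members held 16918097 of the 34269296 UMIs of all members. With the rule genes out of the totals, *Cenpf* (1.24) and *Ube2c* (1.07) passed. *Bex6*, *Slc4a8*, *Dmkn*, *Met*, *Cst7*, *Krt18* and *Gria3* were also among the lowest, and *Ifitm7* had 0 UMIs in members. Leaving out cells with 3 or more UMIs of B lineage, monocyte, stroma or chondrocyte markers left 54 of 720 precursors. Against these the log2 ratio of *Cebpe* was -0.05 in place of 1.69 and that of *Camp* 0.92 in place of 3.66. Deeper cells reach 3 UMIs more readily, and precursors had a median of 42381.5 UMIs, so the 54 are a small part selected on depth too. The part of depth in these changes was not tested.

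Markers of other cell types were present in members. As levels, skeletal stroma markers summed to 2478 CPM in cycling members, 2077 CPM in non-cycling members, 1098 CPM in mature neutrophils and 77259 CPM in stroma cells. Chondrocyte markers were 649 CPM in cycling, 736 CPM in non-cycling and 296 CPM in mature cells, and erythroid markers, among them hemoglobin, 347, 467 and 673 CPM. B lineage markers were 72.9, 14.9 and 28.2 CPM, monocyte and macrophage markers 50.2, 44.2 and 138 CPM, and T and NK markers 6.03, 19.2 and 17.4 CPM. The levels thus had no common order over the groups. The share of cells with at least 3 UMIs, which also depends on depth, was 52.8% of cycling members, 20.3% of non-cycling members and 11.6% of mature neutrophils for stroma markers, 32.9%, 10.6% and 5.38% for chondrocyte markers, and 91.6%, 60.3% and 36.1% for erythroid markers. It was 6.29%, 2.26% and 2.61% for monocyte and macrophage, 2.29%, 0.376% and 0.286% for B lineage and 0.572%, 0.894% and 0.191% for T and NK markers, and at most 0.286% each for mast cell, megakaryocyte and endothelial markers. The part of these markers in the results was not tested beyond the values given without such cells.

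The bone and cartilage UMIs came from few cells. *Bglap*, or osteocalcin, had 4133 UMIs in members, 98.5% of them in 10 cells, and ranked with *Bglap2* as the largest ratio over precursors (7.19 and 6.85), although these near-identical copies can share reads. For *Col2a1* 79.8% and for *Col1a1* 69.8% of the UMIs lay in 10 cells, against 1.96% for *Ngp* and 2.03% for *Lcn2*. The 67 members over 5000 genes held 9.48% of all member UMIs but 84.5% of those of *Col2a1*. Without the cells with other markers the members numbered 1738 and the cycling share was 13.3%. The median log2 ratio of cycling over non-cycling members without them was 4.49 for S phase genes and -1.79 for tertiary granule genes, and that of non-cycling members over mature neutrophils was -2.87 for cytokine genes.

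The same limits found 2 cells at day 10 (0.0273% of 7334) and 104 at day 14 (0.962% of 10813, 0.787 to 1.16%), of which 18 were cycling and 86 non-cycling, beside 37 mature neutrophils. By the stated protocol all libraries were sorted by the same gate, which the cells of day 7 went against. The shares therefore compare libraries and not days. The 86 non-cycling cells of day 14 held 25762 CPM of stroma markers against 2077 CPM at day 7, and 4953 CPM of chondrocyte markers against 736 CPM. Of 6886 genes compared between days in non-cycling cells, 1393 were 2-fold or more higher at day 14 (20.2%) and 1604 lower (23.3%). Skeletal genes such as *Col10a1* (log2 8.46) and *Spp1* (7.65), the pericyte gene *Rgs5* (10.82) and the heat shock genes *Hspb1* (8.09) and *Cryab* (8.60) led the higher side, with *Hspa1a* and *Hspa1b*, near-identical copies. Hemoglobin genes ranked lowest, with *Hbb-bs*, *Hba-a1* and *Hba-a2* first, and erythroid markers had 0 UMIs in the non-cycling cells of day 14 (at most 3.80 CPM by the exact Poisson interval) against 467 CPM at day 7. Also on the lower side were all 10 tertiary granule genes (median -1.5), all 9 trafficking receptors (-1.85, with *Cxcr4* at -3.61), and 9 of 11 interferon genes (-1.60). The secondary granule genes outside the rule were lower in 2 of 9, *Mmp8* (-2.25) and *Cd177* (-1.37), and *Lcn2* was 12815 CPM at day 14 and 14804 CPM at day 7.

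Within day 14, ratios of non-cycling members over mature neutrophils had the sign of day 7 for 7 of 9 secondary granule genes outside the rule, 9 of 10 tertiary granule genes and 6 of 6 NADPH oxidase genes, but for 2 of 10 folding and 2 of 8 glycolysis genes. For cycling over non-cycling members the counts were 6 of 9, 10 of 10, 3 of 6, 7 of 11 and 3 of 8. For single genes, non-cycling members over mature neutrophils gave log2 ratios of 1.97 for *Lcn2*, 5.53 for *Chil3*, 2.20 for *Cebpe*, 2.35 for *Cybb* and -0.08 for *Mmp8* at day 14, beside 1.79, 4.26, 2.62, 2.52 and 0.52 at day 7. *Il1b* was -4.44 and *Ccl6* -4.44 at day 14, beside -3.55 and -3.24. Cycling over non-cycling cells gave -4.12 for *Mmp8*, -6.54 for *Retnlg*, 4.50 for *Fcnb*, 2.17 for *Chil3* and 0.20 for *Lcn2*, beside -3.78, -3.64, 4.24, 1.80 and 0.00. Of the genes past 2-fold at day 7 that could be compared at day 14, 58.9% of those higher and 86.9% of those lower than in mature neutrophils had the same sign, against 33.5% higher and 66.5% lower over all genes compared in both. For cycling cells the shares were 75.2% of the higher and 93.5% of the lower genes, against 48.3% and 51.7%. The day 14 ratios rest on 18 cycling, 86 non-cycling and 37 mature cells, and the last held 36077 CPM of stroma markers.

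**Figure D5:**
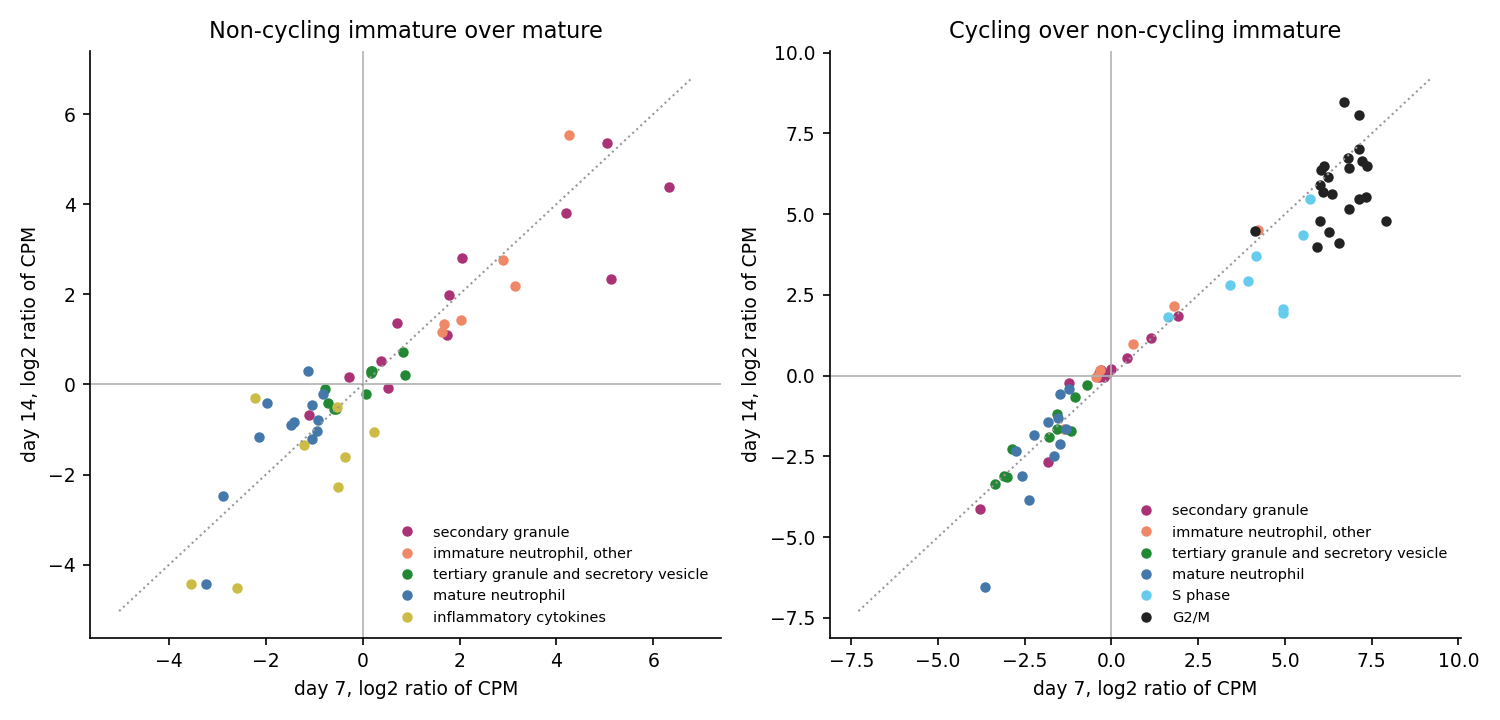
Log2 ratio of each listed gene at day 14 against that at day 7, for non-cycling members over mature neutrophils and for cycling over non-cycling members, with the line of equality dotted; counts of 0 are set to 3. *Mmp8* lies at -3.78 and -4.12 in the second comparison and *Fcnb* at 4.24 and 4.50.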

How the data were processed

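Sorted callus cells were profiled by droplet single-cell RNA-seq in 3 libraries, 1 per day. The files are the authors' own matrices of UMI counts, gene by cell, made per the submitters' processing notes with Cell Ranger 3.0 on mm10, while the file headers name Cell Ranger 3.1.0 and the study's methods name other versions of kit, software and genome. Whole-number counts were used as deposited, and all deposited columns were used. Gene positions came from GENCODE M21 (GRCm38), which held 32235 of 32285 identifiers (99.8%), and promoters from RefSeq. Members, mature neutrophils and precursors were chosen by the limits in the text. Stroma cells, 319 in all, had 200 or more collagen UMIs per 10,000 and no *Ptprc* UMI. The members and the 28 gene lists were chosen with earlier results of these data known. Some members of these lists are counted but not reported by name here.

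UMIs were summed per group and divided by the group's total (CPM). Intervals at 95% were exact Poisson for levels, exact binomial for ratios and Clopper-Pearson for shares, and cover counting error only. Genes with at least 100 UMIs in both groups together were compared, or at least 20 for comparisons within day 14. Comparisons with day 14 were added after the numbers of cells had been seen. A 2-fold ratio was the threshold, and a count of 0 was set to 3 over the group. Named genes were those of the lists and, per comparison, the 10 in each direction with the interval bound farthest from equality, leaving out rule, mitochondrial, ribosomal and unnamed genes. Cells were thinned at random to 2000 UMIs (seed 1) to compare shares across depths. Doublets were not removed by a caller, and 13 alternatives covered the limits, the totals, depth and cells with other markers, with 1 more, on the bins, added after the values were seen. Counts were also simulated with Poisson error only, with 200 genes changed past the 2-fold threshold and the rest unchanged. Of the changed genes, 98.5% were called for non-cycling against mature cells (7644 genes). The share was 100% for cycling against non-cycling (8787) and 100% for members against precursors (10740), and 0% of the unchanged genes were called. These settings largely fix the outcome, so it checks the calculation only. It says nothing about spread between cells, doublets or free RNA. Median depth per cell was 23111 UMIs in cycling and 7284 in non-cycling members. Python 3.11.15, numpy 2.4.6, scipy 1.17.1, pandas 2.3.3 and matplotlib 3.10.9 were used.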

Additional observations from a re-analysis of the deposited data

How the results depend on the processing

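List medians that were 2-fold or more from equality kept their sign under the alternatives, with 2 exceptions. Both were of the CD45 and other surface genes over precursors. The median over all genes compared between cycling and non-cycling members changed from 0.29 to -0.04 in thinned cells. There 49.8% of the calls were higher, in place of 72.6%. The number of members was 2423 with a *Ngp*+*Camp*+*Ltf* limit of 200 per 10,000, 3190 with a limit of 50 and 1738 without cells holding other cell types' markers. The cycling share was 28.5% and 22.1% under those limits, 13.3% without such cells, 19.1% in thinned cells chosen anew, and 31.0% with 1 UMI of *Mki67* or *Top2a* as the limit. Against mature neutrophils, 1046 genes were higher and 1226 lower with a minimum of 20 UMIs, 1295 and 1509 at a 1.5-fold threshold, and 919 were higher with the rule genes left out of the totals, where 0 secondary granule genes were lower. Between cycling and non-cycling members, 683 genes were higher in thinned cells and 1605 without cells holding other markers, and 1625 were lower at 1.5-fold. Against precursors, 2563 were higher with the rule genes out of the totals, and 3013 were lower with a limit of 5000 genes, 1997 in thinned cells and 2374 without cells holding other markers. The median of the CD45 and other surface genes over precursors changed from -1.16 to 0.86 in thinned cells and 2.22 without cells holding other markers. Of 665 recomputed list medians 619 moved little, 44 moved, and 2 that had been 2-fold or more from equality changed sign. Of 7928 values of named genes, 44 that had been 2-fold or more from equality changed sign. Sign changes of smaller ratios were not counted. Left out of the bins, after the data had been seen, cells with other markers turned the log2 ratio of bin 5 over bin 1 of *Klf4* from -5.47 to 0.080, those of *Orm1* and *Fcnb* became 6.82 and 5.07, and the other 11 genes moved by less than 1.5 times. Thinned cells gave fewer genes to compare. The other causes were not tested. No paired analysis was possible because each day is 1 library. With 1 library, nothing here measures the spread between animals.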
